A study of Drosophila melanogaster with 18 samples.

Results

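The genes described here changed in the same direction in every cultured wing disc library of the study, whatever hormone the medium held and however long the culture lasted. A gene was included when all 15 cultured values lay above, or all below, the 3 uncultured values. Of 8524 tested genes, 2976 met this range rule, 1374 of them higher in culture and 1602 lower. The tested genes were those with at least 1 FPKM (fragments per kilobase of transcript, scaled to sequencing depth) in at least 3 of the 18 libraries.

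Wing imaginal discs, the folded larval epithelia from which wings develop, came from wild-type OregonR Drosophila melanogaster larvae taken 96 h after egg laying. Cultured discs lay in Grace's insect medium that held antibiotics and 5% fetal bovine serum, in 5 groups of 3 libraries. They received no hormone for 4 h, 20 nM 20-hydroxyecdysone (20E, the active insect moulting steroid) for 4 h or 9 h, or 5 µg/ml bovine insulin for 4 h or 9 h. The 20E stock was in ethanol and the insulin stock in acidified water, and no group is labelled as receiving these solvents alone. The 3 uncultured libraries held discs frozen within 30 min of dissection, and the cultured discs had also been dissected in hormone-free medium. There was no culture without hormone at 9 h and no uncultured sample of a later larval age, so culture and the hours that passed in it cannot be told apart. All groups share genotype and starting age, and about 15 discs shared a culture volume. The 3 libraries of a group were biological replicates by the series' design text, and p-values measure the spread between them.

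A disc that leaves the larva loses the blood sugar, amino acids, lipids and hormones of the haemolymph and meets a medium made to replace them. Heat shock proteins are chaperones that refold or hold damaged proteins, and their genes are switched on within minutes by heat shock factor when proteins misfold. Growing disc cells spend much of their transcription on making ribosomes, a programme driven by insulin and TOR signalling. When nutrients or growth factors are short, insect cells use FOXO, ATF4 and autophagy genes to save and recycle material.

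Library depth, estimated from the steps between low FPKM values, lay between 27.5 and 37.3 M fragments, and 7847 to 8190 genes per library reached 1 FPKM. The label of the tissue was checked against 15 wing disc epithelium genes, such as vg, nub and ap. Their summed level was 808 to 1131 FPKM in cultured libraries and 830 to 892 FPKM in uncultured ones. Fat body and salivary gland markers were near 0. The 7 fat body genes together reached 0.0398 to 0.623 FPKM in cultured libraries and 0.909 to 1.10 FPKM in uncultured ones. The 9 larval blood cell genes summed to 20.0 to 35.2 FPKM in cultured libraries and 21.4 to 27.9 FPKM in uncultured ones, and 6 of them stayed under 1 FPKM in every library. Gut digestive protease genes stood apart in single libraries. Their 26 genes summed to 1139 FPKM in no hormone replicate 1, 340 and 237 FPKM in insulin 4 h replicates 2 and 3, and 2.60 to 71.1 FPKM in the other 12 cultured libraries. In uncultured discs they summed to 16220 FPKM in replicate 2 and to 5.28 and 5.15 FPKM in replicates 1 and 3. Without uncultured replicate 2 and no hormone replicate 1 together, 3415 genes met the range rule. Leaving libraries out can only keep or raise that count.

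The common change was the mean of the 5 cultured group means minus the uncultured mean on the log2(FPKM + 1) scale, tested with limma across all 8524 genes. On this scale, which understates changes of low genes, 6079 genes were called at an adjusted p under 0.05, or 71.3% of those tested, 3142 higher (36.9%) and 2937 lower (34.5%). Against that background, the range rule held for 34.9% of tested genes, 16.1% upward and 18.8% downward. All 2976 were also called; rule and test use the same libraries, so the common changes below describe the genes and are no separate evidence for them. Tests among the 5 cultured groups leave out the uncultured means, although their error estimate pools the spread within groups of all 18 libraries. The rule used the cultured values, so counts of such calls over the selected genes are a description too. Most changes were modest: the median log2 change was 0.54 for the higher genes and -0.55 for the lower ones, and it was 0.01 over all tested genes. A change of at least 1 on the log2 scale was reached by 168 of the higher genes (1.97% of the genes tested) and 252 of the lower ones (2.96%), together 4.93%.

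**Figure D1:**
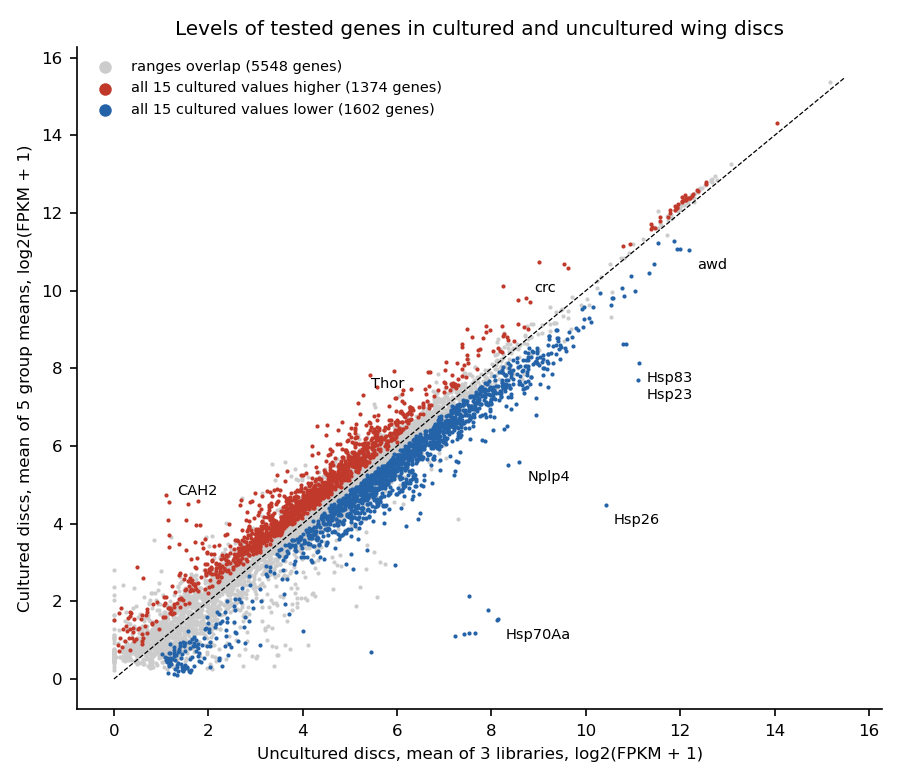
Each point is 1 of 8524 tested genes, with its mean log2(FPKM + 1) in the 5 cultured groups on the vertical axis and in the 3 uncultured libraries on the horizontal axis; the dashed line marks equal levels. Red points (1374 genes) had all 15 cultured values higher, blue points (1602 genes) all 15 lower and grey points overlapped, and the heat shock genes lie farthest below the line.

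The largest falls were in heat shock genes, led by the Hsp70 genes, Hsp68 and Hsp26. The 6 Hsp70 genes encode the classical stress-inducible chaperone. Their summed level was 5.03 to 35.0 FPKM in the 15 cultured libraries, with a median of 7.42 FPKM, against 543, 1587 and 2314 FPKM in the uncultured libraries. The highest cultured library, insulin 4 h replicate 1, thus lay far under the lowest uncultured one, and uncultured replicate 1 lay well under the other uncultured libraries. Fewer cells with a transcript and less of it per cell cannot be told apart in such bulk samples. The fitted changes of the single Hsp70 genes ran from -6.61 for Hsp70Aa to -6.11 for Hsp70Ba (SE 0.34 to 0.35, limma adjusted p at most 6.9e-10). The copies are nearly identical, so the share of reads given to each is uncertain and the sum is the firmer value. All 6 lie on chromosome arm 3R, 5 of them next to another copy.

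Hsp68, a close relative of Hsp70, behaved alike, at 1.54 to 8.48 FPKM in culture and 93.3, 326 and 457 FPKM in uncultured discs. None of these 7 genes showed a difference among the 5 cultured groups (moderated F-test in limma, adjusted p from 0.30 to 0.75), whereas 80.5% of all tested genes did. Their low levels in culture, near 1 FPKM for single copies, limit what that test could show. The F-test compares the means of the cultured groups only. Its error estimate pools the spread within all 6 groups, so the wide spread of the uncultured values enters it too.

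The small heat shock proteins hold unfolded proteins in a soluble state. Of the 8 tested genes of this kind, 7 met the range rule, all of them lower, against 18.8% of all tested genes. All 8 were called lower, against 34.5%, with a median change of -2.82. Hsp26 stood at 9.20 to 78.7 FPKM in culture, with a median of 27.0 FPKM, and at 1013, 1432 and 1771 FPKM in uncultured discs, a change of -5.94 ± 0.33 (SE, limma adjusted p = 5.2e-10). Hsp67Bc stood under 1 FPKM in every cultured library, at 0.285 to 0.891 FPKM, against 25.5, 55.0 and 56.3 FPKM without culture. Hsp67Bc, Hsp22, Hsp26 and Hsp23 are neighbours on chromosome arm 3L, between 9371511 and 9382765 in the BDGP6.54 annotation (coordinates from Ensembl by FlyBase ID), and they fell by unequal amounts.

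Hsp23 kept a substantial level in culture, 73.5 to 746 FPKM with a median of 227 FPKM, against 1688, 2549 and 2535 FPKM in uncultured discs. Hsp27 likewise remained at 166 to 1105 FPKM, against 1603, 2001 and 1936 FPKM. Both were higher in 20E than in insulin culture, by 1.43 ± 0.37 for Hsp23 and by 1.75 for Hsp27 on the log2 scale (limma adjusted p = 0.0032 and 4.1e-07). Hsp22, a mitochondrial family member, was lower in 20E than in insulin culture, with a 20E minus insulin difference of -1.93 ± 0.24 (limma adjusted p = 4.8e-06). The smallest member change was in l(2)efl (-0.50), whose cultured range of 0.147 to 2.48 FPKM overlapped the uncultured values.

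Constitutive and co-operating chaperones fell too, by less. All 12 tested genes of this list were called lower, against 34.5% of all tested genes. The list also holds Hsf, the gene of heat shock factor. It lacks Hsc70-4 and Hsp10, which were not found under those names, so it does not cover all constitutive chaperones. Of them 9 met the range rule downward, against 18.8%, and the median change was -1.10. Hsp83, the fly HSP90, stood at 152 to 617 FPKM in culture with a median of 245 FPKM, and at 2126, 2146 and 2415 FPKM in uncultured discs (-2.99 ± 0.15, limma adjusted p = 2.1e-10). Its 3 insulin 4 h libraries held the highest cultured values, 506 to 617 FPKM, still far under the lowest uncultured one. DnaJ-1, an HSP40 co-chaperone that works with Hsp70, fell by 2.85 (35.3 to 62.4 FPKM against 225, 361 and 433 FPKM), and stv, a BAG-family co-chaperone, fell by 2.21.

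The chaperones of organelles and of normal folding changed less. Hsc70-3, the chaperone BiP of the endoplasmic reticulum, fell by 0.91, the mitochondrial Hsc70-5 by 1.10, and the HSP90 partners Hop and Cdc37 by 1.31 and 0.93. The gene of heat shock factor itself, Hsf, changed by -0.13 and its ranges overlapped, with 38.4 to 49.3 FPKM in culture and 46.1, 46.1 and 45.1 FPKM without. Together the 27 genes of these 3 lists made up 0.155% to 0.353% of all FPKM in cultured libraries and 1.05% to 1.63% in uncultured ones. Hsc70-4 and Hsp10 are not among them.

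**Figure D2:**
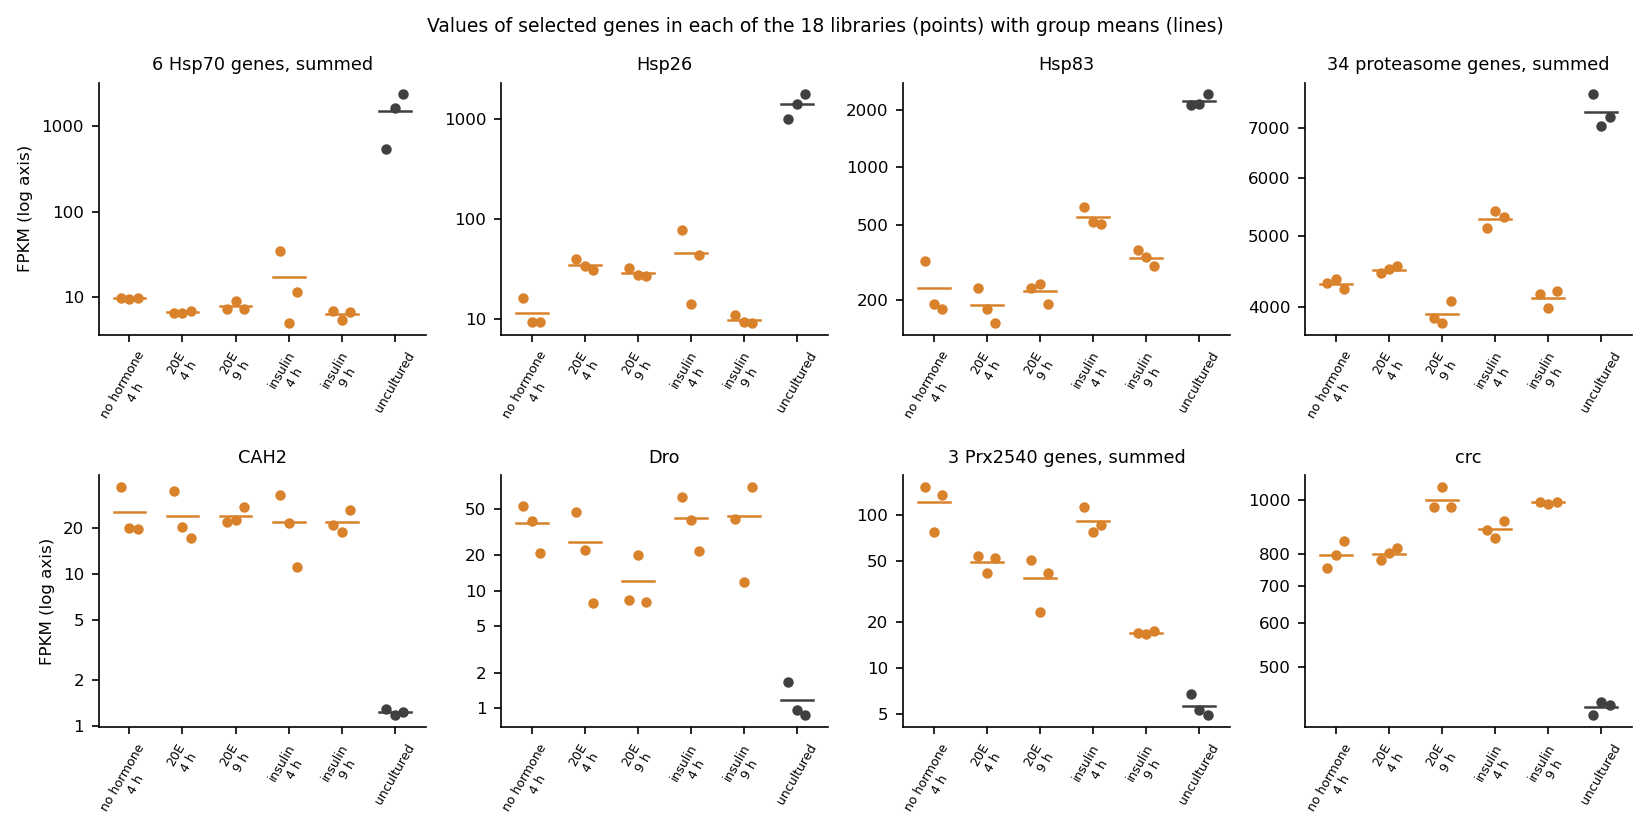
Points are FPKM (log axis) in single libraries and lines are group means, with the 5 cultured groups in orange to the left and uncultured discs in dark grey at the right of each panel. The top row shows Hsp70 (6 genes summed), Hsp26, Hsp83 and 34 proteasome genes summed, all lower in culture; the bottom row shows CAH2, Dro, 3 Prx2540 genes summed and crc, all higher.

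The proteasome, which degrades tagged proteins, fell as a unit. All 32 tested subunit genes met the range rule downward, against 18.8% of all tested genes, with changes confined between -0.94 (Prosalpha4) and -0.53 (Rpn13) and a median of -0.76. The summed level of all 34 subunit genes in the table, 2 of them not tested, was 3809 to 5411 FPKM in culture, with a median of 4324 FPKM, and 7783, 7061 and 7252 FPKM in uncultured discs. The insulin 4 h libraries were highest among the cultured ones, at 5131 to 5411 FPKM, and the lowest value was in a 20E 9 h library. Prosalpha4, a subunit of the catalytic core, had 121 to 202 FPKM in culture and 306, 279 and 296 FPKM without. All 32 genes were also lower at 9 h than at 4 h in the hormone cultures (limma contrast of the 9 h and 4 h hormone groups, adjusted p under 0.05), as 22.2% of all tested genes were.

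Genes that make ribosomes fell throughout. All 17 tested ribosome biogenesis genes met the range rule downward, against 18.8% of all tested genes. Their changes ran from -1.81 (nop5) to -0.42 (Tif-IA), with a median of -1.17. Their summed level was 631 to 1535 FPKM in culture, with a median of 836 FPKM, against 2466, 2255 and 2334 FPKM in uncultured discs. nop5, Nop56 and Fib are core proteins of the box C/D particles that methylate ribosomal RNA. Nop56 stood at 36.3 to 135 FPKM in culture and at 247, 225 and 226 FPKM without (-1.73 ± 0.07, limma adjusted p = 2.9e-11). RpI1 and RpI135 encode the largest subunits of RNA polymerase I, which transcribes ribosomal RNA, and fell by 1.23 and 1.11. All 17 differed among the cultured groups (moderated F-test, adjusted p under 0.05), as 80.5% of all tested genes did. The median change was -1.57 without hormone, -1.26 and -1.51 in 20E at 4 h and 9 h, and -0.55 and -1.14 in insulin at 4 h and 9 h.

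Genes that encode the cytoplasmic ribosome itself went the other way, by small amounts. Of 87 tested genes, 36 met the range rule upward and 1 downward, against 16.1% and 18.8% of all tested genes. Calls were 73 higher and 3 lower, against 36.9% and 34.5%, with a median change of 0.20. RpL5 stood at 5034 to 6145 FPKM in culture and at 4591, 4191 and 4418 FPKM in uncultured discs. Together the 93 such genes in the table, 6 of them not tested, held 49.1% to 53.2% of all FPKM in cultured libraries and 42.4% to 45.5% in uncultured ones, and the groups did not overlap. With quantile scaling the median was 0.03, 16 genes met the rule upward and 29 were called higher, so these counts depend on how libraries are scaled. The only downward one, RpLP0-like, is named for likeness to a ribosomal protein, and whether it is part of the ribosome was not checked. It fell by 1.65, at 27.4 to 94.1 FPKM in culture and 154, 153 and 149 FPKM without.

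Mitochondrial ribosome genes mostly fell: 40 of 75 tested met the rule downward and 2 upward, with a median of -0.39. Over all tested genes 18.8% met it downward and 16.1% upward. mRpL53 stood at 16.9 to 43.6 FPKM in culture and at 91.6, 85.9 and 85.3 FPKM in uncultured discs. In contrast mRpS28 was higher, at 56.8 to 74.9 FPKM against 41.1, 39.3 and 39.9 FPKM. Of 22 tested aminoacyl-tRNA synthetase genes, which load amino acids onto tRNAs, 3 met the rule downward and 2 upward. Neither share exceeded that of all tested genes. The arginine enzyme gene Aats-arg fell by 0.90 and Aats-ser, annotated as a mitochondrial serine enzyme, rose by 0.40.

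Cell division genes were lower as a group. Of 23 tested cell cycle genes 16 met the rule downward and none upward, against 18.8% and 16.1% of all tested genes. Calls were 20 lower and 2 higher (1 higher without uncultured replicate 1), against 34.5% and 36.9%. The list's median was -0.35. Cdk1, the kinase that starts mitosis, stood at 83.9 to 136 FPKM in culture and at 184, 190 and 184 FPKM in uncultured discs. The mitotic kinase gene aurB fell by 0.96, the cytokinesis kinesin gene pav by 0.65, and the mitotic cyclin gene CycB by 0.68. With quantile scaling 8 of the 23 met the rule downward and the median was -0.16. The regulators CycE, stg and E2f1 overlapped between cultured and uncultured discs, and E2f1 had changes of 0.55 and 0.75 in 20E at 4 h and 9 h and -0.42 and -0.41 in insulin.

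Of 17 tested DNA replication genes 10 met the rule downward, against 18.8% of all tested genes, and none upward. The list's median was -0.43. PCNA, the sliding clamp of the replication fork, stood at 176 to 298 FPKM in culture and at 461, 412 and 421 FPKM in uncultured discs. The helicase subunit genes Mcm7, Mcm3, Mcm6 and dpa (Mcm4) fell by 0.88, 0.76, 0.75 and 0.51. Nucleotide synthesis genes followed, with 8 of 13 meeting the rule downward, against the same 18.8%, and a median of -0.42. Among them awd, a nucleoside diphosphate kinase, stood at 1250 to 3317 FPKM in culture and at 5012, 4395 and 4593 FPKM without, and ras, the enzyme of guanine nucleotide synthesis, fell by 0.81.

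Autophagy genes rose. Of 19 tested Atg genes 15 met the rule upward and 1 downward, with a median of 0.55, against 16.1% upward over all tested genes. Atg8a, whose protein coats autophagosomes, stood at 203 to 358 FPKM in culture with a median of 279 FPKM, and at 155, 164 and 141 FPKM in uncultured discs. Its change was 1.19 without hormone, 1.08 and 0.91 in 20E at 4 h and 9 h, and 0.45 and 0.72 in insulin at 4 h and 9 h. Atg9, the membrane-spanning member, rose by 0.85 and Atg6 by 0.66. The kinase gene Atg1 and its partner Atg13 changed by 0.02 and -0.03 and were not called, and Atg16 fell by 0.20.

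Nutrient response genes gave a mixed picture. Of 11 tested FOXO and starvation genes 2 met the rule, both upward, a share near the 16.1% over all tested genes. Calls were 6 higher and 4 lower, or 2 lower without uncultured replicate 3, against 36.9% and 34.5% of all tested genes. Thor, the translation inhibitor 4E-BP and a FOXO target, stood at 97.8 to 340 FPKM in culture with a median of 146 FPKM, and at 31.2, 53.2 and 32.4 FPKM in uncultured discs. The highest Thor values were in the no hormone libraries. crc encodes fly ATF4, the factor that responds to amino acid shortage, and rose by 1.07 ± 0.03 (limma adjusted p = 4.7e-12), at 754 to 1058 FPKM against 410, 434 and 428 FPKM. Its group changes lay between 0.91 and 1.24, yet it was the only one of 7 tested genes of its list to meet the rule.

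Among genes chosen after their values were seen, CG18619, annotated as REPTOR-BP, a partner of the TORC1-regulated factor REPTOR, stood at 117 to 363 FPKM in culture and at 58.6, 64.5 and 56.7 FPKM without. CG5059, annotated as the mitophagy receptor gene BNIP3, stood at 95.3 to 263 FPKM against 41.9, 54.2 and 43.9 FPKM. CG6770, of no role stated here, reached 795 to 2593 FPKM against 499, 540 and 502 FPKM. In all 3 the insulin 4 h libraries were the lowest of the cultured ones. All 3 were higher in 20E than in insulin culture, by 0.74, 1.10 and 1.05 on the log2 scale (limma adjusted p at most 2.5e-09). Of all tested genes 31.7% were called higher in 20E. Other large rises seen with them went the other way. The 20E minus insulin differences of CG12868, Cyp6a17, amd and CG6191 were -0.39, -1.06, -1.22 and -1.29.

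**Figure D3:**
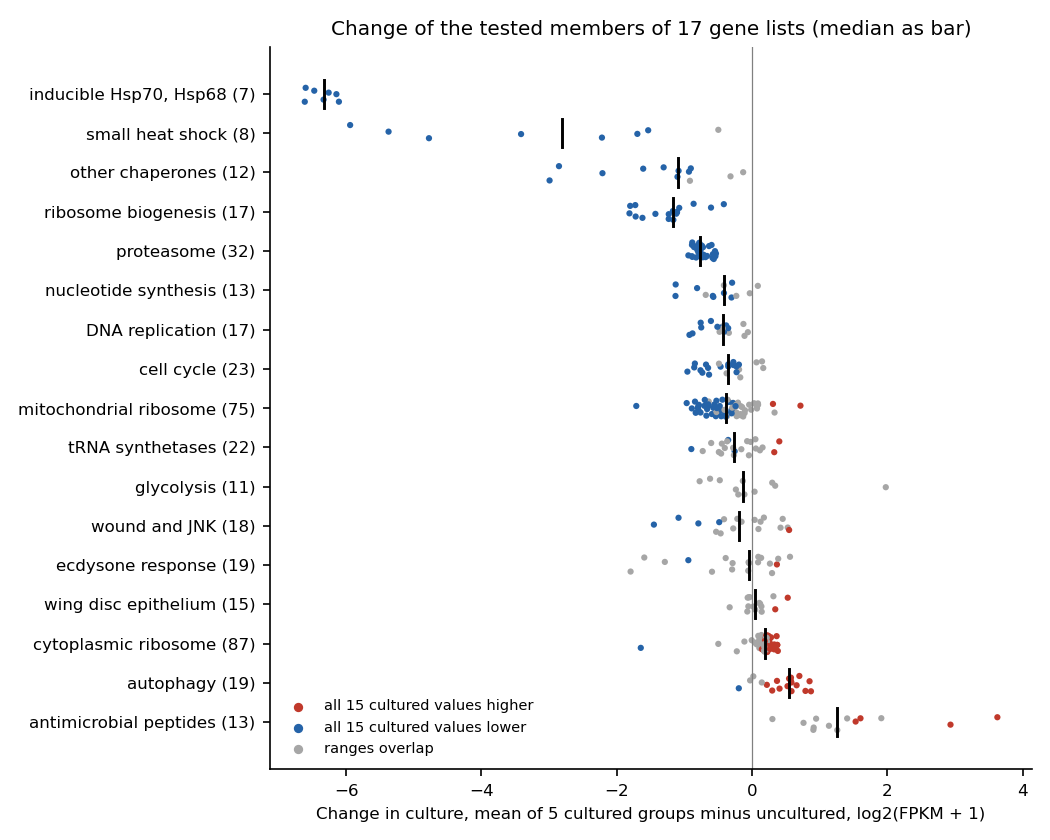
Each dot is the common change (cultured minus uncultured, log2 scale) of 1 tested gene in 17 gene lists, and the bar is the list's median. Heat shock, proteasome and ribosome biogenesis genes lie left of 0, and autophagy and antimicrobial peptide genes mostly right of it.

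Antimicrobial peptide genes, which immune signalling switches on, were low in uncultured discs and higher in culture. Of 13 tested, 4 met the rule, all upward, against 16.1% of all tested genes, and 10 were called higher, against 36.9%. Their median change was 1.26. Dro, the gene of drosocin, stood at 7.91 to 77.0 FPKM in culture with a median of 22.2 FPKM, and at 1.68, 0.972 and 0.871 FPKM in uncultured discs. Def, the gene of defensin, stood at 7.08 to 55.2 FPKM against 3.71, 1.71 and 1.05 FPKM. Neither set of values overlapped, but the cultured libraries spread widely within groups. The count called higher was 6, 4 and 5 when uncultured replicate 1, 2 or 3 was left out, so it rests on single uncultured libraries.

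The other members of that list to meet the rule were Dpt and AttD, both low, and AttD was listed at 0 in all uncultured libraries. Listericin, an antibacterial protein gene, stood at 5.25 to 47.3 FPKM in culture and at 3.07, 0.863 and 0.414 FPKM without. Of 13 tested Imd and Toll pathway regulators 4 met the rule, all upward, against 16.1% of all tested genes. Among them were the receptor gene Tl (11.8 to 25.9 FPKM against 11.3, 10.96 and 11.1 FPKM) and PGRP-SA, a sensor of bacterial wall. Of the fat body and blood cell markers given above, Lsp1gamma made up most of the fat body sum in uncultured discs and crq most of the blood cell sum, so these sums say little about either tissue. Their part in the result was not tested.

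CAH2, a carbonic anhydrase gene, had the second largest rise among genes averaging at least 5 FPKM. It stood at 11.1 to 37.6 FPKM in culture with a median of 21.8 FPKM, and at 1.29, 1.17 and 1.24 FPKM in uncultured discs, a change of 3.41 ± 0.26. Its 5 group changes lay between 3.24 and 3.52, and no difference among the cultured groups was called (F-test, adjusted p = 0.92). CG33978, on chromosome 4, was tight in every group, at 56.5 to 115.1 FPKM against 17.3, 20.8 and 18.5 FPKM.

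A cluster on chromosome arm 2R rose together. Prx2540-2 (10418718 to 10419761 in BDGP6.54), CG11825, Prx2540-1 and CG12896 follow each other there, with gaps of 652, 785 and 1408 bases. Prx2540-2, Prx2540-1 and CG12896 are near-identical peroxiredoxin genes, which remove peroxides, so their sum is the firmer value. It was 152, 77.4 and 134 FPKM without hormone, 53.3, 41.8 and 52.0 FPKM in 20E at 4 h, 50.2, 23.2 and 41.7 FPKM in 20E at 9 h, 111, 76.8 and 84.9 FPKM in insulin at 4 h, and 16.7, 16.5 and 17.5 FPKM in insulin at 9 h, against 6.77, 5.26 and 4.88 FPKM in uncultured discs. All cultured values lay above the uncultured ones, and insulin at 9 h was the lowest cultured group. Averaged over 20E and insulin, each of the 4 neighbours was lower at 9 h than at 4 h, with differences of -1.31 to -1.17 (limma adjusted p at most 0.00017). The 2 hormones differed in this. The mean sum of the 3 copies went from 91.0 to 16.9 FPKM in insulin and from 49.0 to 38.3 FPKM in 20E, where the values overlapped.

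Other redox genes did not follow. Of 15 tested in that list, 6 met the rule downward and 3 upward, against 18.8% and 16.1% of all tested genes. The upward ones were the 3 copies just described. Sod, the cytoplasmic superoxide dismutase gene, stood at 211 to 387 FPKM in culture and at 520, 467 and 506 FPKM in uncultured discs. Prx5, Prx3, Sod2, Trx-2 and Trxr-1 fell by 0.70, 0.60, 0.58, 0.57 and 0.55. Of 25 tested glutathione transferase genes 3 met the rule upward and 1 downward, no larger shares than over all tested genes. The largest rise was in GstT4, at 36.2 to 187 FPKM against 22.4, 20.1 and 23.5 FPKM.

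Of 18 tested genes of the JNK wound response, 4 met the rule downward and 1 upward, a downward share near the 18.8% over all tested genes. puc, a JNK phosphatase and standard JNK target, stood at 11.4 to 18.4 FPKM in culture and at 27.9, 31.7 and 30.5 FPKM in uncultured discs. Jra, the fly Jun, fell by 0.79, and the cell death gene rpr fell by 1.45, at 14.2 to 48.9 FPKM against 61.8, 76.2 and 73.4 FPKM. The cell death gene hid was the one higher, at 24.1 to 44.7 FPKM against 24.1, 20.0 and 22.3 FPKM.

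**Figure D4:**
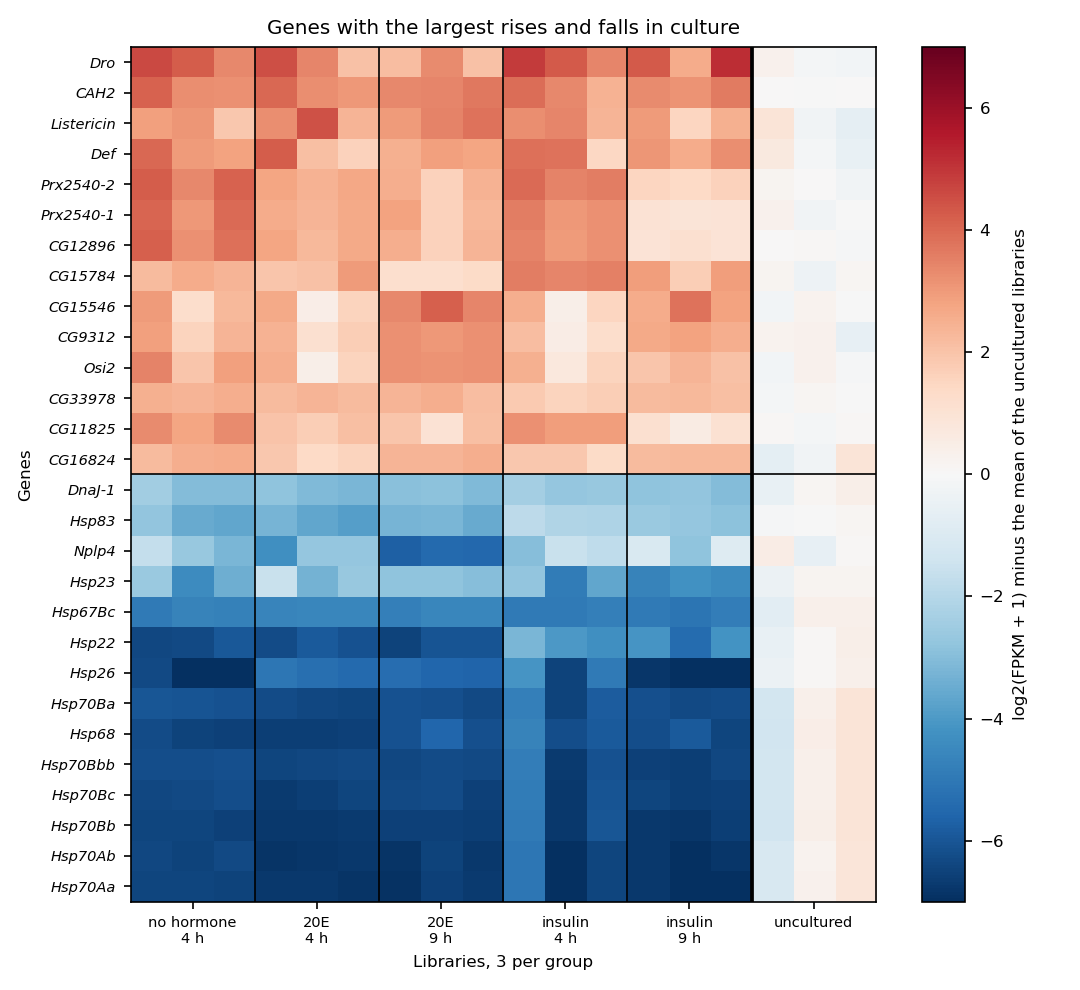
Rows are the 28 protein-coding genes with the largest rises and falls, columns are the 18 libraries with cultured ones left of uncultured ones, and colour is log2(FPKM + 1) minus the uncultured mean, with the scale ending at 7 in either direction. The heat shock rows are strongly negative in every cultured column.

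Of 15 wing disc epithelium genes 2 met the rule, both upward, against 16.1% of all tested genes, with a median of 0.05. They were en, the posterior selector gene, which rose by 0.53, and tsh, which rose by 0.34. Among 16 Notch pathway targets 3 met the rule upward and 1 downward, an upward share near that same 16.1%. E(spl)m4-BFM stood at 34.0 to 131 FPKM in culture and at 19.3, 28.5 and 24.4 FPKM without, and without uncultured replicate 2 the upward count was 6. Of 49 tested cuticle protein genes 3 met the rule, all downward, against 18.8% of all tested genes. Among them was Cpr49Ah, at 6.50 to 29.5 FPKM against 75.8, 65.5 and 73.9 FPKM. The list's median was -0.13, and 0.10 without uncultured replicate 1, in which the 121 cuticle genes of the table summed to 2433 FPKM against 419 and 383 FPKM in the other uncultured libraries.

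The remaining signalling lists are given beside the 34.9% of all tested genes that met the rule. Of 9 Wingless targets 2 met the rule upward (Notum and arr, by 0.53 and 0.34) and 1 downward (fz3, by 0.44). Of 8 Dpp pathway genes only the inhibitor gene Dad met it, downward by 0.25, and of 10 Hippo genes Mer rose by 0.64 and hpo fell by 0.30. Of 7 Hedgehog genes 1 met the rule upward and of 7 EGFR targets 0 did. Of 19 ecdysone response genes Eip71CD met it upward and Eip55E downward, and of 4 clock genes 0 did. Of 7 basement membrane genes only the laminin gene LanB1 met it, by 0.29 upward, and of 17 tested vacuolar ATPase genes 1 did, upward.

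Markers of other tissues rarely met the range rule, which 34.9% of all tested genes met. Disc myoblast genes, with 0 of 7 meeting the rule, summed to 81.4 to 122 FPKM in culture and 94.3 to 102 FPKM in uncultured discs. Among 7 tested larval muscle genes 1 met the rule downward and 4 were called lower, against 18.8% and 34.5% of all tested genes. The sum of all 8 in the table was 43.1 to 77.8 FPKM in culture and 52.8 to 87.7 FPKM without. The one, up (troponin T), stood at 0.402 to 2.44 FPKM against 2.88, 5.14 and 8.01 FPKM. Tracheal genes had 1 of 7 meeting the rule, pio, which rose by 0.49, neuronal genes 0 of 3 and gut protease genes 0 of 8. The part of other tissues in these results was not tested.

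The size of the shared change differed among the 5 cultured groups for most of these genes. The F-test called 1168 of the 1374 higher genes (85%) and 1394 of the 1602 lower genes (87%), against 80.5% of all tested genes. Insulin at 4 h lay closest to uncultured discs for 880 of the higher genes and 1163 of the lower ones. This was not counted over all tested genes, so whether it is particular to these genes was not tested. The median change of the higher genes was 0.64 without hormone, 0.55 and 0.60 in 20E at 4 h and 9 h, and 0.32 and 0.53 in insulin at 4 h and 9 h. For the lower genes these medians were -0.64, -0.57, -0.64, -0.34 and -0.58 in the same order of groups.

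**Figure D5:**
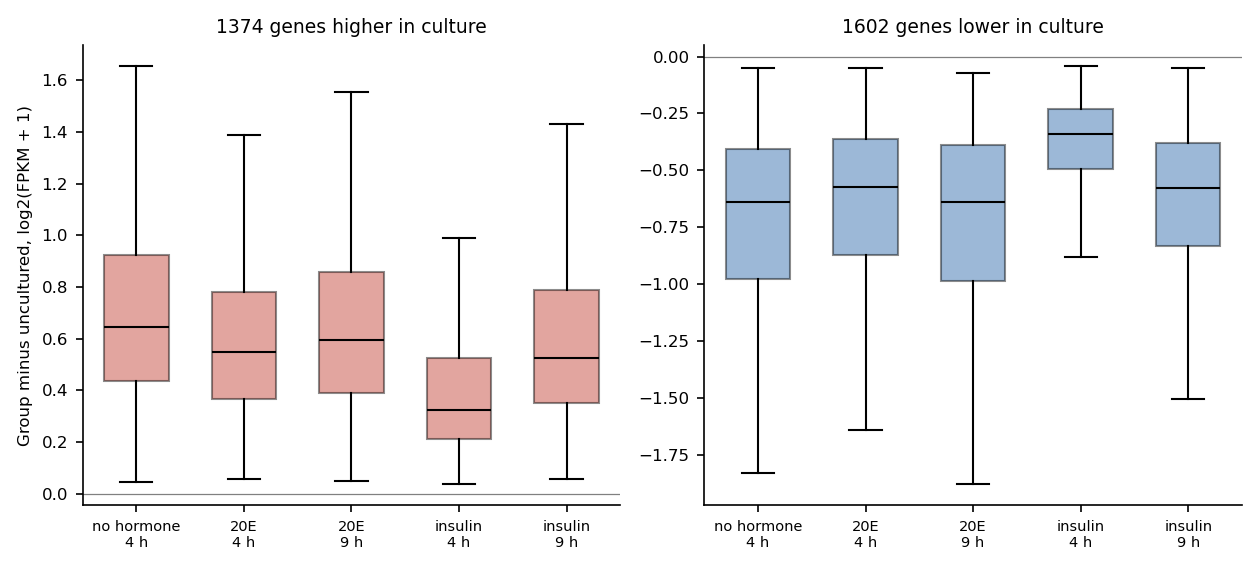
Boxes show the change from uncultured discs (log2 scale) of the 1374 higher and the 1602 lower genes in each of the 5 cultured groups, with quartiles, median and whiskers to 1.5 interquartile ranges and no outliers drawn. Insulin at 4 h has the medians nearest 0, at 0.32 and -0.34.

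Time and hormone were compared within culture. Between 9 h and 4 h of hormone culture, 689 of the higher genes were higher still and 54 lower, and 924 of the lower genes were lower still and 38 higher, against 44.1% of all tested genes called, 21.9% higher and 22.2% lower. Between 20E and insulin, 707 of the higher genes were higher in 20E and 206 lower, and 912 of the lower genes were lower in 20E and 149 higher, against 63.8% of all tested genes called, 31.7% higher and 32.1% lower. The widest spans were in Nplp4, a neuropeptide-like precursor gene, with changes of -5.56 in 20E at 9 h and -1.61 in insulin at 9 h, and spirit, a serine protease gene of the Toll pathway, with 3.77 and 1.21.

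The rule has a hard edge. Just inside it, the lowest cultured and the highest uncultured value of jvl were both 26.15 FPKM after rounding, and scu had a highest cultured value of 208.3 FPKM and a lowest uncultured one of 208.4 FPKM. Just outside lay tud, with a lowest cultured value of 54.43 FPKM and a highest uncultured one of 54.44 FPKM, and CG8005, where both were 16.55 FPKM after rounding.

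The lower genes were more abundant than the rest. Among protein-coding genes, median FPKM was 42.8 for the lower genes, 24.0 for the higher ones and 24.6 for all tested. With tested genes ranked by level into 5 equal bins, 35.8% met the rule downward in the highest bin and 7.86% in the lowest; the part of measurement precision in this was not tested. The median longest annotated transcript was 1754 bases for the lower genes, 2143 for the higher ones and 1981 for all tested. Chromosome 4 held 1.39% of the 1291 higher genes with annotation and 0.394% of the 1524 lower ones, against 0.725% of the 7721 tested. Shares this small rest on few genes.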

How the data were processed

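Poly(A) RNA from wing discs was sequenced with a directional kit, per the labels' protocols. The authors deposited 1 table of FPKM values per gene and library; the submitters' processing notes name cutadapt, TopHat2, Cufflinks and build BDGP5, with no versions or settings. How reads shared by near-identical copies were assigned is not given in the sources used here. Depth was estimated from the steps between low FPKM values (86.2% to 93.0% of them within 0.1 of a whole fragment), and no count test was run.

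Of 15602 genes, 8524 that reached 1 FPKM in 3 or more libraries were analysed as log2(FPKM + 1) with limma 3.58.1 in R 4.3.3, in a model of 6 groups with moderated variances that follow mean level. Contrasts were the mean of the 5 cultured groups minus uncultured, each group minus uncultured, 9 h minus 4 h and 20E minus insulin, and a moderated F-test compared the cultured groups. P-values were Benjamini-Hochberg adjusted over all tested genes and called under 0.05. The 5 comparisons with uncultured discs share those libraries. The method was tested on simulated data.

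Named genes were the 14 largest rises and 14 largest falls among protein-coding genes that met the range rule and averaged at least 5 FPKM in cultured or uncultured discs. Of those with a change of at least 1, the 5 largest with no difference called among cultured groups were named. So were the 5 with the widest span among these groups, whatever the F-test gave. The nearest genes at the rule's edge and members of 40 gene lists were named too. The members and lists were chosen with earlier results of these data known. Gene positions come from Ensembl 115 (BDGP6.54), in which 14925 IDs matched. Alternatives covered pseudocount, filter, scaling, weights, pooling, replicate numbers and each library left out.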

Additional observations from a re-analysis of the deposited data

Results flagged for a closer look

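The genes named for the size of their change or their span among cultured groups numbered 30. For 9 of them the culture change differed between 20E and insulin when that difference itself was tested (limma, 20E minus insulin averaged over 4 h and 9 h, adjusted over all genes). Such a difference was called for 63.8% of all tested genes. It was negative, meaning a lower level in 20E culture, for Dro (-1.19, adjusted p = 0.038), CG15784 (-1.26, adjusted p = 8.8e-05), Hsp22 (-1.93, adjusted p = 4.8e-06) and Nplp4 (-2.54, adjusted p = 6.1e-05). The same sign held for Hsp83 (-1.07, adjusted p = 7.3e-06) and CG16884, annotated as Vajk3 (-2.07, adjusted p = 7.9e-10). It was positive for CG33978 (0.37, adjusted p = 0.00018), Hsp23 (1.43, adjusted p = 0.0032) and spirit (2.19, adjusted p = 1.8e-06).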

How the results depend on the processing

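With the cultured libraries pooled as 1 group, the number of genes called higher in culture was 2043, against 3142. The other 268 counts of the main comparisons under alternatives lay within 1.5 times. Of the single genes and list medians, 1934 values were counted as the same. For single genes this meant the same direction and call. For list medians it meant a move under the list's median SD among uncultured libraries, whatever the sign. A further 34 list medians moved by more, among them some near 0 that changed sign. The proteasome median was -0.49 with quantile scaling (-0.76 otherwise), and that of antimicrobial peptides was 2.74 with a pseudocount of 0.1 and 0.80 with array weights (1.26). Direction turned for 3 list medians that were larger than that SD in the main fit. Trachea was -0.29 with a mean of at least 5 FPKM required (0.12 otherwise), and glycolysis was 0.19 with quantile scaling (-0.14). Disc myoblasts were at -0.0231 with quantile scaling and -0.0418 with 4 h groups only (0.10). With 1 library left out, 5594 to 6096 genes were called, 1379 to 1604 met the range rule upward and 1605 to 1781 downward. The range rule counts could only stay or rise in these fits. Replicate numbers did not pair the samples (8 of 45 same-numbered pairs correlated over 0.1), and with a replicate block 6133 genes were called. FPKM cannot show a change in total RNA per disc.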

Other observations

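Some large changes were called on average over culture but split between hormones, so they did not meet the range rule. The ecdysone targets Eip75B, vri and ImpE1 had common changes of -1.29, -1.80 and -1.59. Without hormone they changed by -3.30, -3.56 and -3.38, and in 20E at 4 h by 0.65, 0.86 and 0.61. Their 20E minus insulin differences were 2.90, 4.24 and 3.71 (limma adjusted p at most 8.4e-11).

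ImpL3, the lactate dehydrogenase gene, reached 11.2 to 501 FPKM in culture and 11.4, 10.2 and 12.5 FPKM in uncultured discs. It changed by 4.78 and 3.01 in insulin at 4 h and 9 h, by 0.89 and 1.19 in 20E, and by 0.00 without hormone. None of 11 tested glycolysis genes met the range rule, and their group medians were -0.10 without hormone, -1.16 and -0.70 in 20E, and 0.87 and 0.40 in insulin. The insulin receptor gene InR changed by 1.35 in 20E at both times and by -0.83 and -0.48 in insulin. ImpL2, which binds insulin-like peptides, changed by -3.41 without hormone and by 1.35 in insulin at 4 h.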
